A study of Caenorhabditis elegans with 4 samples.

Results

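The genes described here are those of Caenorhabditis elegans whose symbols begin with eif- or eef-. They encode cytosolic translation initiation and elongation factors, except eif-4A3, which is included by its symbol. The symbol was found from the WormBase identifier of each row, and eef-1A.1 and eef-1A.2 were left out, which gave 29 of the 20179 features analysed. Ribosome-protected fragments had been sequenced from whole young adult worms, in 2 libraries of a double mutant carrying the alleles cey-1(rrr12) and cey-4(ok858) and 2 libraries of N2, the wild type. Y-box proteins, the products of the cey genes, are messenger RNA-binding proteins with a cold-shock domain, and the study's title connects them with how polysomes form. Each library is a homogenate of whole animals, neither single mutant was analysed here, and the labels do not say whether the 2 libraries of a strain came from separate cultures, so p-values measure the spread between these libraries, which may be technical.

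Translation starts when eIF2 brings the initiator methionyl-tRNA to the small ribosomal subunit, and eIF2B recharges eIF2 with GTP after each round. eIF3, the largest initiation factor, is a scaffold that binds the small subunit and joins the other factors and the message to it. During elongation, eEF1A delivers aminoacyl-tRNAs, the eEF1B complex exchanges the GDP on eEF1A for GTP, and eEF2 moves the ribosome on by a codon.

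Gene counts summed to 27180732 and 22303560 in the mutant libraries and to 32913332 and 27867396 in the N2 libraries. Both mutated genes had nearly lost their footprints: cey-4 had 1.87 and 1.53 CPM in the mutant libraries, against 263 and 267 CPM in N2, and cey-1 had 3.85 and 4.14 CPM in the mutant against 69.8 and 73.6 CPM in N2. CPM stands here for footprint counts scaled to the size of the library, normalised with TMM factors, which scale libraries to a common level for most genes. Every one of the 29 genes was well covered, with counts from 412 for eif-2D in a mutant library to 333920 for eef-2 in an N2 library, and all 29 passed the filter on low counts. The libraries of a strain agreed closely on these genes, the larger value being at most 1.1 times the smaller for all 29 in each strain. The SD of the log2 CPM difference over the 29 genes was 0.049 between the mutant libraries, 0.065 between the N2 libraries and 0.093 between the first library of each strain. A footprint count reflects both how much of a message there is and how densely ribosomes sit on it, and in whole animals fewer cells of a type and less RNA per cell cannot be told apart.

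Most factor genes held a slightly smaller part of the footprints in the mutant than in N2. At TMM scaling the log2 fold change (mutant over N2) was below 0 for 28 of the 29, and for 6335 of all 13086 genes tested. With ribosomal protein genes set at 0, however, it was below 0 for 14 of the 29. The changes were small, the lowest mutant level being 82.4% of the N2 level, for eif-2beta. Of the 29, 13 fell and 1 rose, and the other 15 were not called (edgeR quasi-likelihood test, 2-sided, with a Benjamini-Hochberg adjusted p under 0.05 over 13086 genes as the threshold). The 13 are 44.8% of the members, and without mutant replicate 2 the number lower was 8. Among all genes tested 16.6% were called lower and 17.4% higher. Among the 4191 genes at least as abundant as the least abundant member, 32.5% were called lower and 19.4% higher. These 4191 genes, cut at 19.9 CPM, were not matched in abundance to the members of each complex. Both mutant libraries lay below both N2 libraries for 24 of the 29, for 1 both lay above, and for 4 the strains overlapped. Among all genes tested 31.3% lay wholly below and 33.5% wholly above. The median log2 fold change of the 29 was -0.11, against 0.01 for all genes tested.

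**Figure D1:**
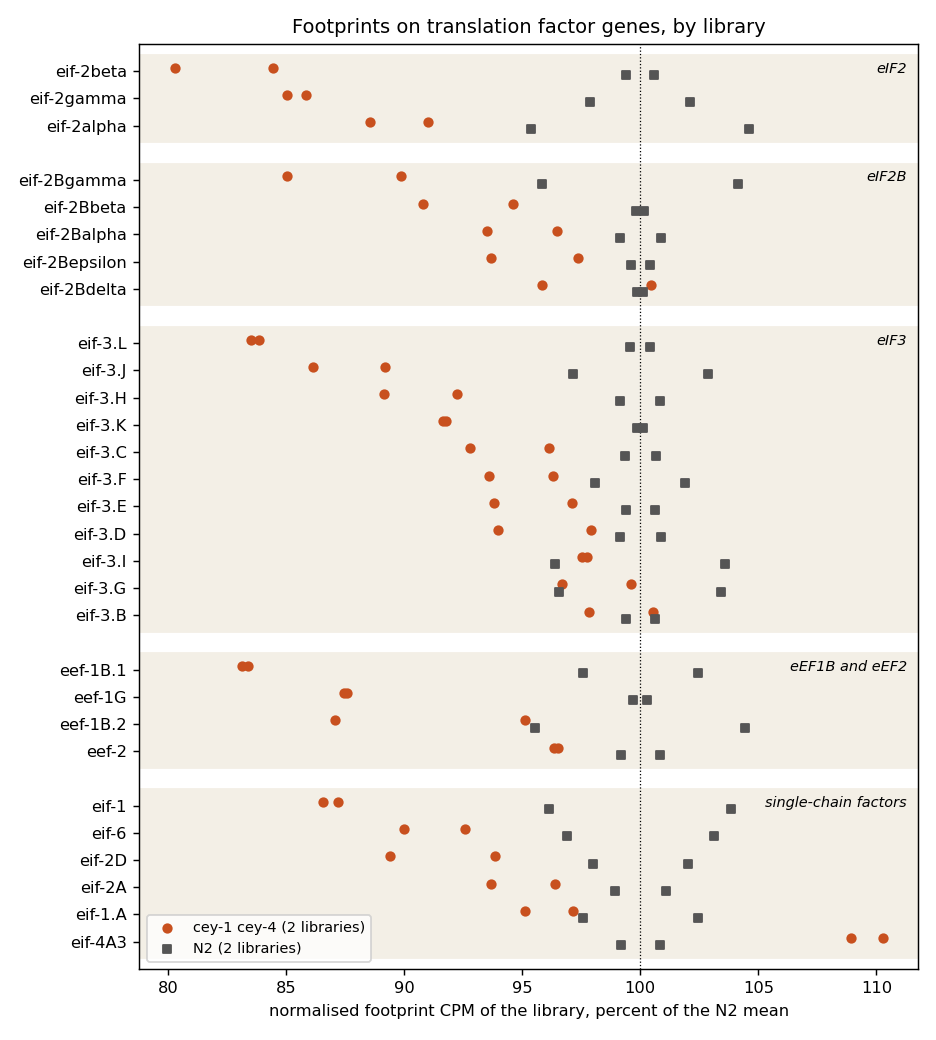
Normalised footprint CPM of each library as a percent of the N2 mean of the same gene (x axis) for the 29 factor genes (y axis), with cey-1 cey-4 libraries as circles and N2 libraries as squares. At this TMM scaling the mutant points lie left of both N2 points for 24 genes, eif-2beta being farthest left, and right of them for eif-4A3 alone, which is called lower with the somatic markers at 0.

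How many members fell depended on the scaling of the libraries. Setting the median of cytosolic ribosomal protein genes at 0 moved the median of all genes to 0.12 and that of the 29 to 0.00. Of the 29, 4 were then called lower (eif-2beta, eif-2gamma, eif-3.L and eef-1B.1) and 2 higher (eif-4A3 and eif-3.B). Of all 13086 genes tested, 1048 were called lower and 3615 higher at this scaling. Setting the median of muscle, intestine and hypodermis marker genes at 0 moved the median of all genes to -0.30 and that of the 29 to -0.42. All 29 were then called lower. Of all 13086 genes tested, 6828 were called lower and 645 higher at this scaling. In the same libraries the 19 oocyte markers together took 0.458% and 0.449% of the counts in the mutant, against 0.744% and 0.767% in N2, and 18 of them were called lower. The 19 muscle markers took 3.39% and 3.40% in the mutant, against 2.11% and 2.24% in N2, with 15 called higher, and the 22 sperm markers took 0.196% and 0.205% in the mutant against 0.140% and 0.148% in N2, with 20 of the 21 tested called higher. The 20 germline markers took 0.483% and 0.482% in the mutant against 0.539% and 0.552% in N2, with 8 of the 19 tested called lower and 1 higher. The 17 intestine markers took 1.03% in each mutant library, against 0.923% and 0.924% in N2, with 10 called higher and 1 lower, and the 18 hypodermis markers took 0.522% and 0.529% in the mutant against 0.496% and 0.528% in N2, with 6 called higher. At TMM scaling the median log2 fold change was 0.349 for the muscle, 0.203 for the intestine and 0.345 for the hypodermis markers. It was -0.988 for the oocyte, 0.454 for the sperm and -0.087 for the germline markers. No marker of these lists was at 0 in every library, and their part in the factor genes' values was not tested.

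All 3 subunits of eIF2, the carrier of the initiator tRNA, fell. Its genes had a median log2 fold change of -0.23, which became -0.12 with the ribosomal protein genes at 0 and -0.54 with the somatic markers at 0. With eIF2B included, 50% of the genes were called lower, beside 16.6% of all genes tested and 32.5% of the 4191 abundant genes. Among the 8 genes of eIF2 and eIF2B together, 4 fell, against 2 without mutant replicate 2 and 2 without N2 replicate 1. eif-2beta (WBGene00010560), whose product helps eIF2 respond to the start codon, had 118 and 113 CPM in the mutant libraries and 141 and 139 CPM in the N2 libraries. The strains did not overlap, and it fell, by 0.28 in log2 units (SE 0.041, edgeR adjusted p = 5.74e-08) to 82.4% of its N2 level. eif-2gamma, which encodes the GTP-binding subunit, had 357 and 361 CPM in the mutant and 411 and 429 CPM in N2, a fall of 0.23 (SE 0.036, edgeR adjusted p = 3.78e-07).

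eif-2alpha encodes the subunit that stress kinases phosphorylate to slow initiation. It had 286 and 279 CPM in the mutant and 329 and 300.1 CPM in N2, so that the lower N2 library lay near the higher mutant library. It fell by 0.16 (SE 0.038, edgeR adjusted p = 0.000896), but was not called without N2 replicate 1 (-0.09, edgeR adjusted p = 0.175) or without mutant replicate 2 (-0.14, edgeR adjusted p = 0.0611). Summed over the 3 subunits, eIF2 took 0.0765% and 0.0750% of all counts in the mutant and 0.0882% and 0.0867% in N2. Within the complex, a comparison that does not depend on library scaling, eif-2beta held 15.5% and 15.0% of the counts in the mutant and 16.0% and 16.1% in N2, while the shares of eif-2alpha and eif-2gamma overlapped between strains.

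Of the 5 subunits of eIF2B, the exchange factor that recharges eIF2, 1 fell and 4 were not called. The share called lower, 20%, was near the 16.6% of all genes tested and below the 32.5% of the 4191 abundant genes. The median of the 5 subunits, -0.08, became 0.03 with the ribosomal protein genes at 0. eif-2Bgamma, which encodes a subunit of the catalytic part, had 38.2 and 36.2 CPM in the mutant and 44.3 and 40.8 CPM in N2, with no overlap. It fell by 0.19 (SE 0.0575, edgeR adjusted p = 0.00556), a call lost without N2 replicate 1 (-0.13, edgeR adjusted p = 0.157) or mutant replicate 2 (-0.16, edgeR adjusted p = 0.105). eif-2Bepsilon, which encodes the catalytic subunit, had 48.9 and 50.9 CPM in the mutant and 52.5 and 52.04 CPM in N2, and its log2 fold change of -0.07 (95% interval -0.17 to 0.04) missed the threshold (edgeR adjusted p = 0.34).

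The regulatory subunits of eIF2B, through which phosphorylated eIF2 blocks the exchange, are encoded by eif-2Balpha, eif-2Bbeta and eif-2Bdelta. Their log2 fold changes were -0.08, -0.11 and -0.03, and none was called. The 95% interval of eif-2Bdelta ran from -0.14 to 0.08, and its mutant libraries, at 42.89 and 44.97 CPM, lay on either side of the N2 libraries at 44.7 and 44.8 CPM. Within eIF2B the share of eif-2Bgamma was 20.0% and 18.8% in the mutant, below its 21.4% and 20.1% in N2, and the share of eif-2Bdelta was 22.4% and 23.3% in the mutant, above its 21.6% and 22.1% in N2. The medians of -0.23 for eIF2 and -0.08 for eIF2B are descriptions and were not tested against each other.

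Of the 11 genes for subunits of eIF3, 4 fell and 7 were not called, although all 11 log2 fold changes were below 0 at TMM scaling, and without mutant replicate 2 the number lower was 2. The 4 are 36.4% of these genes, near the 32.5% called lower among genes at least as abundant as the least abundant member. The number became 1 with the ribosomal protein genes at 0 and 11 with the somatic markers at 0. At these scalings 1048 and 6828 of all 13086 genes tested were called lower. At TMM scaling 6335 of the 13086 had a log2 fold change below 0. The median of the 11 eIF3 genes, -0.08, became 0.03 with the ribosomal protein genes at 0 and -0.39 with the somatic markers at 0. The members that fell were eif-3.L, eif-3.J, eif-3.H and eif-3.K. None of them corresponds to a subunit of the stable eIF3 core of budding yeast, where eIF3j is only loosely attached, and the K and L subunits bind each other at the edge of the mammalian complex. This grouping was made after the values were seen.

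eif-3.L (WBGene00015920) had 210.2 and 209 CPM in the mutant libraries and 249.6 and 252 CPM in the N2 libraries. The libraries of each strain were nearly equal and the strains did not overlap. The gene fell by 0.26 (SE 0.036, edgeR adjusted p = 1.77e-08) to 83.7% of its N2 level. Its partner eif-3.K had 96.96 and 96.82 CPM in the mutant and 105.5 and 106 CPM in N2, and fell by 0.12 (SE 0.043, edgeR adjusted p = 0.0181), a call lost without mutant replicate 1 (-0.13, edgeR adjusted p = 0.117) or mutant replicate 2 (-0.12, edgeR adjusted p = 0.118). eif-3.J, the loosely bound subunit, had 116 and 111.8 CPM in the mutant against 134 and 126 CPM in N2, a fall of 0.19 (SE 0.042, edgeR adjusted p = 0.00018). eif-3.H, one of the pair of subunits with an MPN domain, had 210.0 and 203 CPM in the mutant against 226 and 229.6 CPM in N2. It fell by 0.14 (SE 0.037, edgeR adjusted p = 0.00152), and was not called without mutant replicate 2 (-0.12, edgeR adjusted p = 0.122).

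The subunits that match the yeast core, eif-3.B, eif-3.C, eif-3.G and eif-3.I, all missed the threshold. eif-3.C, which took the most counts of the 11 eif-3 genes (not corrected for its length), had 498 and 481 CPM in the mutant and 521 and 514 CPM in N2. Its strains did not overlap, but its log2 fold change of -0.08 (95% interval -0.16 to -0.003) was not called (edgeR adjusted p = 0.103). eif-3.B, a scaffold subunit, had 416 and 405 CPM in the mutant and 412 and 417 CPM in N2, which overlap. Its log2 fold change was -0.01 (95% interval -0.08 to 0.06, edgeR adjusted p = 0.843) and became 0.10, called higher (edgeR adjusted p = 0.0303), with the ribosomal protein genes at 0. eif-3.G and eif-3.I, which encode a small RNA-binding and a WD-repeat subunit, had log2 fold changes of -0.02 and -0.03 with overlapping libraries, and eif-3.I was called lower without N2 replicate 1 (-0.09, edgeR adjusted p = 0.0301). The remaining subunits eif-3.D, eif-3.E and eif-3.F lay at -0.06 to -0.08 and were not called, with both mutant libraries below both N2 libraries for each. eif-3.F was called lower without N2 replicate 1 (-0.10, edgeR adjusted p = 0.0102).

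The share of each gene in the eIF3 counts does not depend on how the libraries are scaled, and is given without a test. eif-3.L held 8.26% and 8.41% of the counts of the 11 genes in the mutant and 9.36% and 9.38% in N2, and eif-3.B held 16.4% and 16.3% in the mutant and 15.4% and 15.5% in N2. The shares of eif-3.H, eif-3.J, eif-3.K and eif-3.L were lower in both mutant libraries than in both N2 libraries. Those of eif-3.B and eif-3.G were higher, for eif-3.G by little (4.29% in mutant replicate 2 against 4.25% in N2 replicate 2). For the other 5 genes the shares overlapped. By CPM, a different measure, both mutant libraries lay below both N2 libraries for 8 of the 11 genes and above for 0. Over all genes tested the CPM lay wholly below for 31.3% and wholly above for 33.5%. No value over all genes was computed for shares. Shares within a complex are tied, since a lower share of a gene raises the others, and the log2 fold change of eif-3.B was -0.01. Summed over the 11 genes, eIF3 took 0.256% and 0.248% of all counts in the mutant and 0.267% and 0.268% in N2. The eIF3 subunits with other symbols, egl-45 (the A subunit) and cif-1 (the M subunit), were added after the values were seen. egl-45 had 603 and 579 CPM in the mutant and 626 and 624 CPM in N2 and was not called (log2 fold change -0.08, edgeR adjusted p = 0.154), whereas cif-1 had 303 and 302 CPM in the mutant and 337 and 347 CPM in N2 and fell by 0.18 (SE 0.036, edgeR adjusted p = 5.39e-05).

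**Figure D2:**
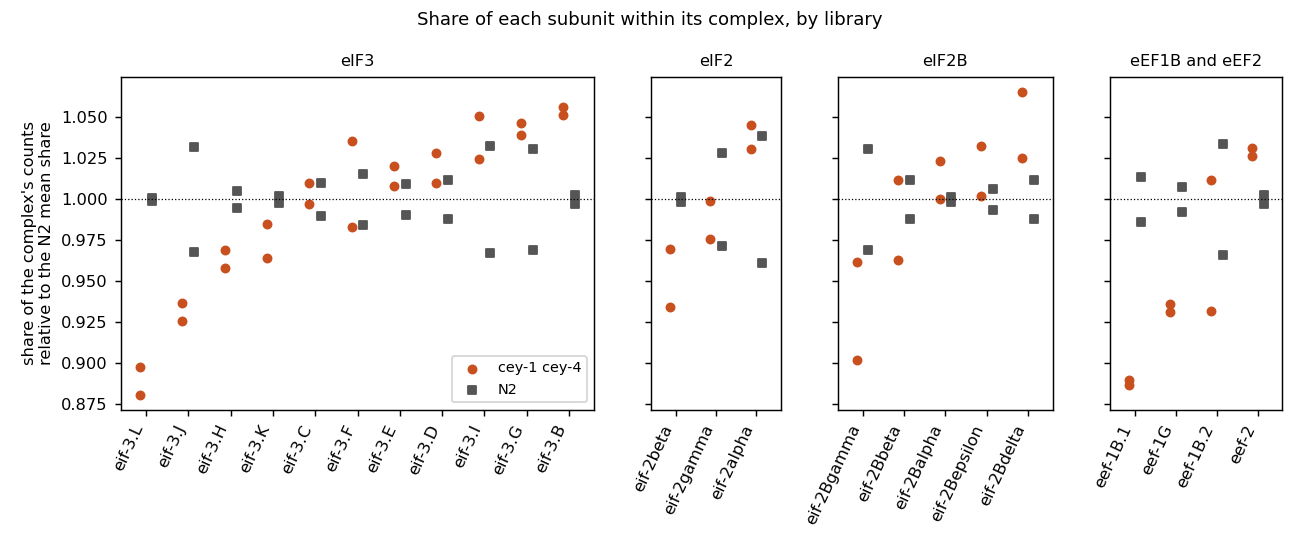
Share of each gene in the footprint counts of its complex, divided by its mean share in N2 (y axis), for eIF3, eIF2, eIF2B and the elongation factors, with cey-1 cey-4 libraries as circles left of the N2 libraries as squares. eif-3.L and eef-1B.1 have the lowest mutant shares relative to N2, eif-3.L at 0.889 and eef-1B.1 at 0.888 of the N2 mean.

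Of the 4 elongation genes, the 3 of the eEF1B complex fell and eef-2 was not called, and without mutant replicate 1 the number lower was 1. Called lower were 75% of the elongation genes, beside 16.6% of all genes tested and 32.5% of the 4191 abundant genes. Those 4191 genes reach down to 19.9 CPM, whereas mean CPM of the elongation genes ran from 774 for eef-1B.2 to 10044 for eef-2. The median of the 4 elongation genes, -0.16, became -0.06 with the ribosomal protein genes at 0. eef-1B.1 (WBGene00018846) had 950.2 and 953 CPM in the mutant and 1115 and 1171 CPM in N2. It is one of a pair of genes for the nucleotide exchange subunits and fell by 0.26 (SE 0.053, edgeR adjusted p = 3.46e-05) to 83.3% of its N2 level. eef-1B.2, the other of the pair, had 705 and 770.1 CPM in the mutant and 774 and 846 CPM in N2, so that the higher mutant library nearly reached the lower N2 library. It fell by 0.13 (SE 0.051, edgeR adjusted p = 0.0329), but was not called without mutant replicate 1 (-0.07, edgeR adjusted p = 0.48) or N2 replicate 2 (-0.07, edgeR adjusted p = 0.377).

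eef-1G encodes the gamma subunit, which holds the eEF1B complex together; like eif-1, eif-3.H and eif-3.K it overlaps another protein-coding gene, so some of its reads may belong to the neighbour. It had 1907 and 1909.9 CPM in the mutant and 2174 and 2187 CPM in N2, with the libraries of each strain close together, and fell by 0.19 (SE 0.0575, edgeR adjusted p = 0.00596). With 1 mutant library left out the size stayed at -0.19 but the call was lost (edgeR adjusted p = 0.0629 without replicate 1 and 0.0613 without replicate 2). eef-2, the translocase, had 9853 and 9869.5 CPM in the mutant and 10143 and 10312 CPM in N2. Its strains did not overlap, but the log2 fold change of -0.05 (95% interval -0.16 to 0.05) was not called (edgeR adjusted p = 0.489). Counts of eef-2 were 2.77 and 2.72 times those of the 3 eEF1B genes together in the mutant libraries and 2.50 and 2.45 times in the N2 libraries. The ratio of eef-1B.1 to eef-1B.2 counts was 1.35 and 1.24 in the mutant and 1.44 and 1.39 in N2.

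The 6 remaining genes, whose products act as single chains or in another complex, included the only member that rose at TMM scaling. Of the 6, 2 fell (33.3%), near the 32.5% of the 4191 abundant genes. eif-1, which encodes the factor that keeps the scanning ribosome from starting at a wrong codon, had 75.6 and 76.2 CPM in the mutant and 84.0 and 90.8 CPM in N2. It fell by 0.20 (SE 0.047, edgeR adjusted p = 0.000345), with no overlap. Its partner in scanning, eif-1.A, had 206 and 202 CPM in the mutant and 218 and 207 CPM in N2, and its log2 fold change of -0.06 (95% interval -0.13 to 0.02) was not called (edgeR adjusted p = 0.247). eif-6, whose product keeps the large subunit from joining too early, had 192 and 198 CPM in the mutant and 207 and 220.2 CPM in N2. It fell by 0.13 (SE 0.038, edgeR adjusted p = 0.00395), and was not called without mutant replicate 1 (-0.11, edgeR adjusted p = 0.147) or N2 replicate 2 (-0.09, edgeR adjusted p = 0.0724).

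eif-2A and eif-2D encode factors that can deliver a tRNA to the ribosome without eIF2 and are not subunits of it. At log2 fold changes of -0.07 and -0.12 neither was called (edgeR adjusted p = 0.162 and 0.187), with both mutant libraries below both N2 libraries. eif-4A3 (WBGene00022029) encodes a DEAD-box helicase of the exon junction complex, which marks spliced messages, rather than an initiation factor proper. It had 180.1 and 178 CPM in the mutant and 162 and 165 CPM in N2, so that both mutant libraries lay above. At TMM scaling it rose by 0.13 (SE 0.038, edgeR adjusted p = 0.00416) and by 0.24 with the ribosomal protein genes at 0, but turned to -0.18, called lower, with the somatic markers at 0. It was not called without mutant replicate 1 (0.12, edgeR adjusted p = 0.11) or mutant replicate 2 (0.14, edgeR adjusted p = 0.0522), nor with DESeq2 (adjusted p = 0.127).

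**Figure D3:**
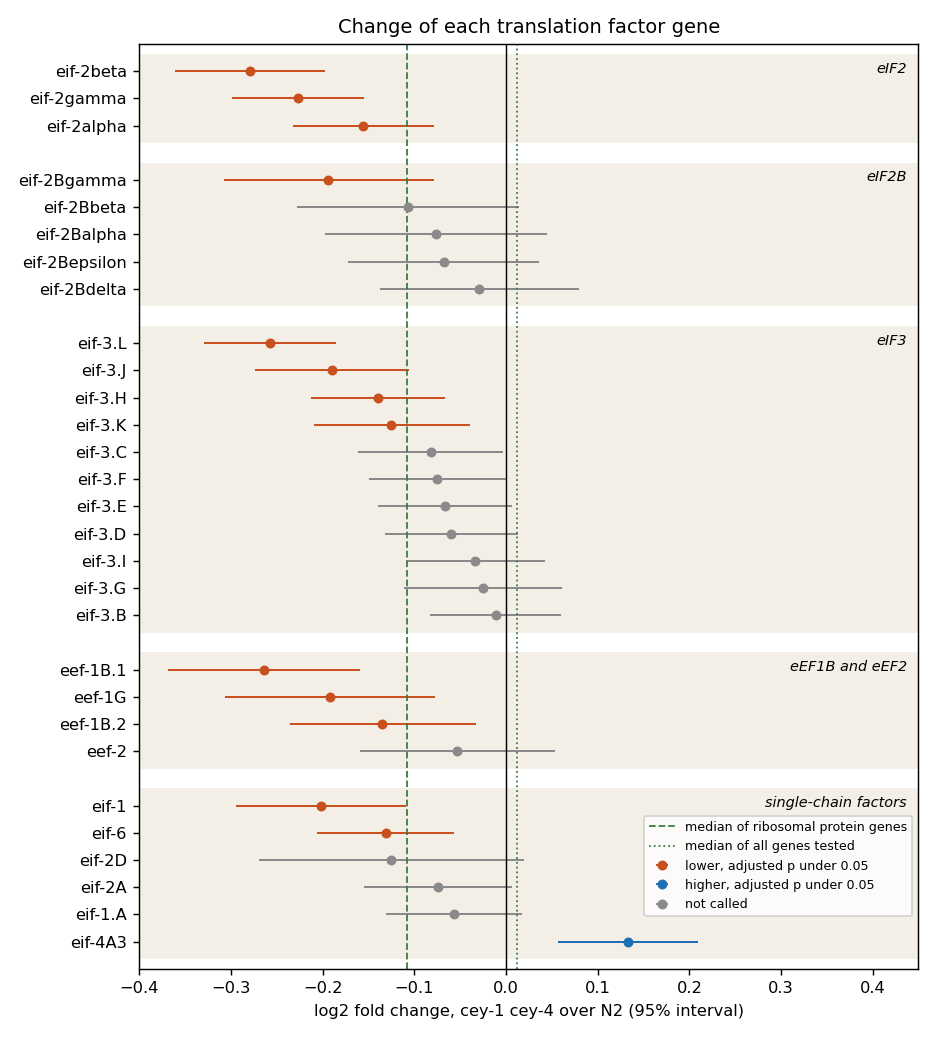
Log2 fold change of each factor gene, cey-1 cey-4 over N2 (x axis), with its 95% interval from the edgeR fit, for the 29 genes grouped by complex (y axis). The dashed line marks the median of ribosomal protein genes at -0.11 and the dotted line that of all genes at 0.01, and at this TMM scaling eif-2beta (-0.28), eef-1B.1 (-0.26), eif-3.L (-0.26) and eif-2gamma (-0.23) lie farthest left, followed by eif-1 (-0.20).

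**Figure D4:**
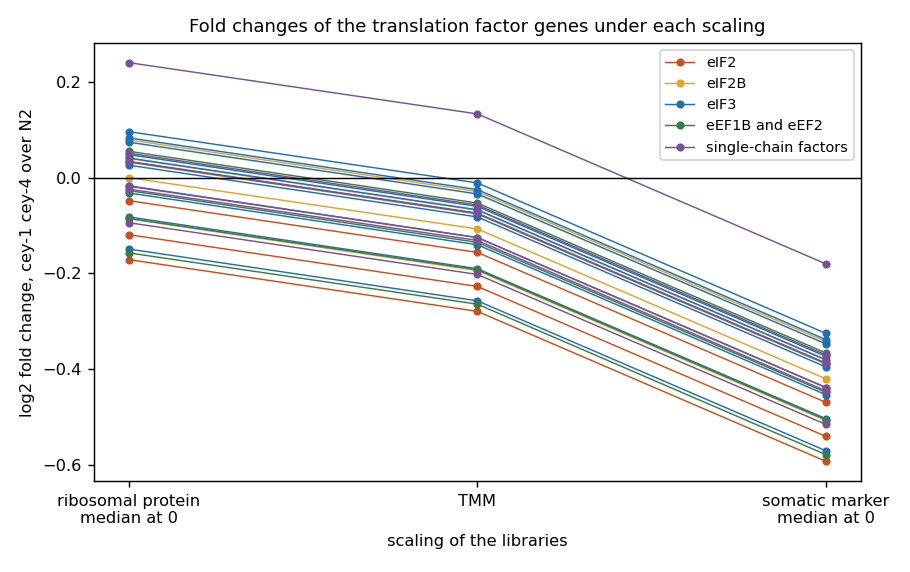
Log2 fold change, cey-1 cey-4 over N2 (y axis), of the 29 factor genes under 3 scalings of the libraries (x axis), each line being a gene. The whole set moves from a median of 0.00 through -0.11 to -0.42, so that eif-4A3 is above 0 under 2 of the 3 scalings.

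Further translation factors and their modifiers that lack the eif- or eef- prefix were followed as a list of 33 genes. Of these, 14 fell (42.4%), 4 rose (12.1%) and 15 were not called, against 16.6% lower and 17.4% higher among all genes tested and 32.5% lower and 19.4% higher among the abundant genes above. The counts became 5 lower and 6 higher with the ribosomal protein genes at 0. With the somatic markers at 0 they became 30 lower and 1 higher. At the first of these scalings 1048 of all 13086 genes tested were called lower and 3615 higher. At the second, 6828 were called lower and 645 higher. The median of the 33 genes was -0.10, which became 0.00 with the ribosomal protein genes at 0. Of the cap-binding eIF4E genes, ife-1 had 232 and 230.4 CPM in the mutant and 269.9 and 285 CPM in N2 and fell by 0.26 (SE 0.037, edgeR adjusted p = 1.61e-08), and ife-3 fell by 0.19. ife-2, ife-4 and ife-5 were not called, and the 4E-binding protein gene ifet-1 fell by 0.20. ifg-1, the eIF4G scaffold, had 504 and 507 CPM in the mutant and 477 and 470.1 CPM in N2. It rose by 0.10 at the edge of the threshold (edgeR adjusted p = 0.0475), and in each fit without 1 library it missed it (edgeR adjusted p from 0.126 to 0.287). With the somatic markers at 0 it turned to -0.22, called lower. The eIF4A helicase gene inf-1 fell by 0.19, while iffb-1 (eIF5B) and drr-2 (eIF4H) were not called (0.06 and 0.09, edgeR adjusted p = 0.232 and 0.276). Both were called higher with the ribosomal protein genes at 0 (0.17 and 0.20, edgeR adjusted p = 0.000407 and 0.00705) and lower with the somatic markers at 0 (-0.25 and -0.23). iffb-1 was also called higher with upper-quartile factors (0.11, edgeR adjusted p = 0.0261) and without N2 replicate 2 (0.12, edgeR adjusted p = 0.0109).

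Among genes that act later or regulate the factors, erfa-1, which encodes the release factor that reads stop codons, had 261 and 251 CPM in the mutant and 292 and 304 CPM in N2. It fell by 0.22 (SE 0.037, edgeR adjusted p = 1.08e-06), whereas its GTPase partner erfa-3, at -0.08, was not called (edgeR adjusted p = 0.0746; -0.11 and 0.0133 without N2 replicate 2). The ribosome recycling gene abce-1 fell by 0.15 (not without mutant replicate 2, -0.13, edgeR adjusted p = 0.0718). The eIF2 kinase genes gcn-2 and pek-1 both fell by 0.23 and the eEF2 kinase gene efk-1 by 0.17, and gcn-1, whose product activates GCN2, was not called (-0.04). The gcn-2 call was lost without mutant replicate 2 (-0.17, edgeR adjusted p = 0.144) or N2 replicate 2 (-0.20, 0.0668), and the efk-1 call without mutant replicate 1 (-0.15, 0.126). The pek-1 call was lost without mutant replicate 1 (-0.20, edgeR adjusted p = 0.187), mutant replicate 2 (-0.26, 0.0502) or N2 replicate 2 (-0.21, 0.0816). abcf-3 fell by 0.12 and tufm-2, a mitochondrial EF-Tu gene, by 0.16. Without mutant replicate 2 neither was called (-0.08 and -0.12, edgeR adjusted p = 0.31 and 0.21), nor was tufm-2 without N2 replicate 1 (-0.15, 0.0711). abcf-1 and abcf-2, of the same ATP-binding cassette subfamily as abcf-3, fell by 0.21 and 0.19. The mitochondrial factors tufm-1, tsfm-1 and gfm-1 and the diphthamide genes dph-1, dph-2 and dph-3, whose products modify eEF2, were not called, although dph-1 was called lower without mutant replicate 2 (-0.22, edgeR adjusted p = 0.0457).

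The largest rises on that list, those of pab-2 and iff-2, were in genes with a paralog that fell or was not called. The differences between paralogs were not tested. pab-2, a poly(A)-binding protein gene, had 126 and 132 CPM in the mutant and 88.8 and 90.9 CPM in N2 and rose by 0.52 (SE 0.043, edgeR adjusted p = 4.22e-17), while pab-1, at -0.06, was not called (edgeR adjusted p = 0.461). iff-2, an eIF5A gene, had 517 and 552 CPM in the mutant and 425.5 and 437 CPM in N2 and rose by 0.31 (SE 0.039, edgeR adjusted p = 5.16e-10), but was at -0.002 with the somatic markers at 0. The germline eIF5A gene iff-1 fell by 0.26 (SE 0.053, edgeR adjusted p = 6.72e-05). The nuclear cap-binding gene ncbp-1 rose by 0.18 (edgeR adjusted p = 0.00155; -0.13, called lower, with the somatic markers at 0), and ncbp-2 was not called (-0.01).

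Set beside the other parts of the translation machinery, the factor genes had a median of -0.11. Of 76 cytosolic ribosomal protein genes 24 were called lower and 4 higher, with a median of -0.11, and of 32 aminoacyl-tRNA synthetase genes 18 were called lower and 1 higher, with a median of -0.14. Of 69 mitochondrial ribosomal protein genes 55 were called lower, with a median of -0.26. The shares called lower were 31.6%, 56.2% and 79.7% in these 3 classes, against 16.6% of all genes tested and 32.5% of the abundant genes. By calls, the cytosolic ribosomal protein genes thus lay near the share of the abundant genes. At TMM scaling both mutant libraries lay below both N2 libraries for 76.3%, 87.5% and 94.2% of the 3 classes, against 31.3% of all genes tested. The summed share of counts in the mutant was 0.937 of that in N2 for the 29 factor genes, 0.926 for the cytosolic ribosomal protein genes, 0.910 for the synthetase genes and 0.855 for the mitochondrial ribosomal protein genes. These medians and sums are descriptions and the differences between them were not tested.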

How the data were processed

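Footprints from 4 libraries were counted per gene. The authors deposited whole-number counts, aligned with Bowtie per the submitters' processing notes. Not given in the sources used here are the build, the annotation, the strand rule and how reads matching several genes were treated. The deposited log2 values equal, to within 0.0005, the log2 of each count after scaling to the smallest total and adding 8. Of 20182 rows, 3 under sequence names were left out, and 18778 identifiers matched a symbol. By the RefSeq annotation of WBcel235, 7 members overlap another protein-coding gene (eif-1, eif-2A, eif-2Bdelta, eif-3.D, eif-3.H, eif-3.K and eef-1G), and reads of such pairs may not be told apart. How alike eef-1B.1 and eef-1B.2 are was not examined, so their split is uncertain. Coding lengths were not used, so genes are not ranked by level.

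edgeR 4.0.16 under R 4.3.3 gave the tests (TMM, filterByExpr with minimum count 10, glmQLFit robust, glmQLFTest, 2-sided, genotype as the only term), with limma 3.58.1 and DESeq2 1.42.0 as alternatives, beside other scalings, filters and thresholds, a replicate block and fits without each library. The test was also run on simulated counts with known changes. The SE is the size of the log2 fold change over the root of F, and intervals are 95% from the same fit. The libraries of a strain differed beyond counting noise (the mutant libraries with a chi-square of 8.38 and the N2 libraries of 24.6 per degree of freedom), so none was counted as a copy. Members and lists were chosen with earlier results of these data known. Every member is named, and per-library values go to the lowest p, largest change and highest CPM of each complex, to calls against the median, and to other members the text turns on. Of 38 related factors listed, 33 matched a symbol.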

Additional observations from a re-analysis of the deposited data

How the results depend on the processing

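The main counts were 13 factor genes lower and 1 higher, 4 lower in eIF3, 4 in eIF2 and eIF2B, 3 among elongation factors, and 14 lower and 4 higher among related factors. With the somatic markers at 0 they were 29 and 0, 11, 8, 4, and 30 and 1, and with the ribosomal proteins at 0 they were 4 and 2, 1, 2, 1, and 5 and 6. These scalings lowered every log2 fold change by 0.31 and raised it by 0.11, and over all genes the share of calls that were higher was 8.63% and 77.5%, against 51.1%, and 63.1% with upper-quartile factors. glmTreat against a 1.2-fold change called 0 factor genes either way (also 0 at an unadjusted p under 0.05) and 0 related factors lower and 1 higher. With DESeq2 the factor genes were 9 lower and 0 higher (14 and 1 at an unadjusted p under 0.05), for causes not tested, and the related factors 9 and 2. Over all genes DESeq2 called 1129 lower and 895 higher, and glmTreat 450 and 809, against 2177 and 2278 in the main fit. Leaving out 1 library gave 8 to 13 factor genes lower and 0 to 1 higher, 2 to 6 in eIF3, 2 to 4 in eIF2 and eIF2B, 1 to 3 elongation factors, and 10 to 13 related factors lower and 3 to 4 higher. Of the 13 lower factor genes, 6 were lower in all 4 of these fits: eif-1, eif-2beta, eif-2gamma, eif-3.J, eif-3.L and eef-1B.1. The lowest counts were without mutant replicate 2 for all factors, eIF3 and eIF2 with eIF2B (there also without N2 replicate 1), and without mutant replicate 1 for elongation. These fits have 1 residual degree of freedom and assume that the lone library varies like the other strain's. Upper-quartile factors, library totals, other filters, limma-voom, limma on deposited values and an adjusted p under 0.01 kept each count within 1.5-fold. A replicate block called 14 factor genes lower, adding eif-3.C, but the labels do not say that numbers pair samples (correlation of same-numbered deviations 0.111). Centred on somatic genes, the called or newly called values that changed sign were eif-4A3 (-0.18), dph-2 (-0.31), ncbp-1 (-0.13), iff-2 (-0.002), ifg-1 (-0.22), drr-2 (-0.23) and iffb-1 (-0.25), and centred on ribosomal proteins eif-3.B (0.10). With egl-45 and cif-1, an alternative chosen after seeing the data, eIF3 had 5 lower. Each factor gene had at least 400 counts in each library, but the errors differed between genes. eif-2D, at -0.12 with an SE of 0.0726, was not called, while eif-3.K, also at -0.12 with an SE of 0.0429, was. The error did not simply fall with coverage: the highly covered eef-1G and eef-2 had SEs of 0.0575 and 0.0533.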
